A study of Arabidopsis thaliana with 6 samples.

Results

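Indole glucosinolates and camalexin are defense compounds that Arabidopsis makes from tryptophan, and the 10 genes described here encode their regulators and main enzymes. They were taken by gene ID, with earlier results of these data known, from 27372 genes measured in whole seedlings. They are the transcription factor genes *MYB34* (AT5G60890), *MYB51* (AT1G18570) and *MYB122* (AT1G74080), the cytochrome P450 genes *CYP79B2* (AT4G39950), *CYP79B3* (AT2G22330), *CYP83B1* (AT4G31500), *CYP81F2* (AT5G57220), *CYP71A13* (AT2G30770) and *CYP71B15* (AT3G26830, better known as *PAD3*), and the glucosidase gene *PEN2* (AT2G44490). All 10 averaged 0.5 FPKM or more across the 6 libraries and were among the 19839 genes tested. *CYP71A13* reached that mean only through the *fer-4* libraries, so it had to differ in order to be tested.

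RNA-seq compared *fer-4*, an insertion mutant of the receptor-like kinase gene *FERONIA* (*FER*), with its wild type Col-0. Both were grown as seedlings on MS-agar plates in long days for 7 days at the moderately elevated light intensity the study calls ML, and both were collected at zeitgeber time 3. The labels give this light as 154 mmol m-2 s-1, where the study's methods write μmol. There were 3 libraries of each genotype, and the question was which mRNAs differ between seedlings without and with FER when light is moderately elevated. No library came from dimmer light, so the part of light in a genotype difference cannot be told. The study describes *fer-4* seedlings after 7 days at ML as severely damaged.

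Every indole compound of this group starts from tryptophan, which CYP79B2 and CYP79B3 turn into indole-3-acetaldoxime. CYP83B1 takes the aldoxime toward indole glucosinolates, sulfur-rich glucosides that CYP81F enzymes and methyltransferases then decorate on the ring. CYP71A13 and its relative CYP71A12 take the same aldoxime toward indole-3-acetonitrile, from which PAD3 finishes camalexin, the main phytoalexin of Arabidopsis. PEN2 cuts indole glucosinolates in living cells, and its products limit fungal entry.

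Promoters of the aldoxime pair and of the nitrile pair are shown first, since these 4 genes form the aldoxime and open the camalexin branch. Each is the 250 bases before the RefSeq gene start in TAIR10.1, whose nuclear chromosomes are those of TAIR10, written 5′ to 3′ on the gene's own strand. Capitals mark the longest run of letters that the members of a pair share. *CYP79B2* is taken from chr4:18524792-18525041 (plus strand), *CYP79B3* from chr2:9488163-9488412 (plus strand), *CYP71A12* from chr2:13101372-13101621 (minus strand) and *CYP71A13* from chr2:13111989-13112238 (minus strand).
CYP79B2: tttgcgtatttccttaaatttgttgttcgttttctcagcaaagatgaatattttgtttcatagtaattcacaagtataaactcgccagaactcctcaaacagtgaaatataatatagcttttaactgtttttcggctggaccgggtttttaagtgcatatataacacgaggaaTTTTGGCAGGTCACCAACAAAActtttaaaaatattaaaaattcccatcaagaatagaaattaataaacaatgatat
CYP79B3: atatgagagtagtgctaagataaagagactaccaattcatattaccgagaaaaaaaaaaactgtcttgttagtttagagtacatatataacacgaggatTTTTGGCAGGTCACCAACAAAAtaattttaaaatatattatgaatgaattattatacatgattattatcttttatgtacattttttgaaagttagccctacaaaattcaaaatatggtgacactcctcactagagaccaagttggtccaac
CYP71A12: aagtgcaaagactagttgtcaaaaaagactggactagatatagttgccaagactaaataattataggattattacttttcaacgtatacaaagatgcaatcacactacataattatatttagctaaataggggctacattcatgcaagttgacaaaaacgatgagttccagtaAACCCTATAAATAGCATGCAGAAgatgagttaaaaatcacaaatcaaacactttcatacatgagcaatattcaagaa
CYP71A13: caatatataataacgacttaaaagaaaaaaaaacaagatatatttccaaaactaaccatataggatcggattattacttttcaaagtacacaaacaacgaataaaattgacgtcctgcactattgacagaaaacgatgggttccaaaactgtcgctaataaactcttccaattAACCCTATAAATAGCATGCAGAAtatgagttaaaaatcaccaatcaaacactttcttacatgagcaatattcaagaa

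*CYP79B2* and *CYP79B3*, on different chromosomes, share a run of 22 bases. It begins 77 bases before the RefSeq start of *CYP79B2* and 151 bases before that of *CYP79B3*. Among 27443 promoter windows of this length it occurs in these 2. In the deposited files the loci of *CYP79B2* and *CYP79B3* begin further downstream, at bases 18525246 and 9488554, so distances from those starts are longer. *CYP71A12* and *CYP71A13* share a run of 23 bases, which begins 77 bases before the RefSeq start in both and occurs in no other window. These runs were looked for after the windows had been seen. For *CYP71A12* and *CYP71A13* the locus in the deposited files begins inside the window, so its last bases may be transcribed.

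The core of the W-box bound by WRKY factors (TTGAC, or GTCAA on the other strand) occurred in the 250-base windows of 4 of the 10 genes, and in 44.9% of all windows. *MYB51*, *CYP81F2* and *CYP71A13* each held it 2 times and *PEN2* held it 1 time. It also occurred 2 times before *CYP71A12*. The G-box bound by MYC factors (CACGTG, the same on both strands) occurred in 0 of the 10 and in 6.49% of all windows. At that share few of any 10 windows would hold it, so the 0 says little. The window of *MYB34* ends at base 24494290, while its locus begins at base 24494691, so the bases between were not searched. *CYP79B2* and *CYP79B3* held neither word in this window.

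Of the 10 genes, 9 rose in *fer-4* seedlings, 0 fell and *MYB122* did not pass, and the log2 fold change was above 0 in all 10 genes (for *MYB122* it was -0.07 without Col-0 replicate 3). Here rose and fell mean that limma on log2(FPKM + 0.1) gave an adjusted p under 0.05, with Benjamini-Hochberg adjustment over all genes tested, and SE is the standard error of the log2 fold change. FPKM, the unit read from the name of the authors' program and from the values, count fragments per kilobase of transcript relative to all fragments mapped in the library. Among all genes tested, 18.0% rose and 16.0% fell. In these 9 genes every *fer-4* library was above every Col-0 library, as it was in 26.1% of all genes (25.1% lay the opposite way). The median log2 fold change was 1.67 over the 10 genes and -0.01 over all genes tested. At the study's thresholds for DEGs, an adjusted p no higher than 0.01 with a difference of 2-fold or more, 6 of the 10 were higher, as were 6.36% of all genes. *CYP79B2*, *CYP79B3*, *CYP83B1*, *CYP81F2*, *CYP71A13* and *PAD3* passed, while *MYB34*, *MYB51* and *PEN2* stayed under 2-fold. The 9, the 6 and the median include *CYP71A13*, which reached a mean of 0.5 FPKM only through *fer-4* and so had to differ. Without *fer-4* replicate 3, Col-0 replicate 1 or Col-0 replicate 2, 7 of the 10 rose. In whole seedlings, fewer cells of a type and less RNA per cell cannot be told apart.

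**Figure D1:**
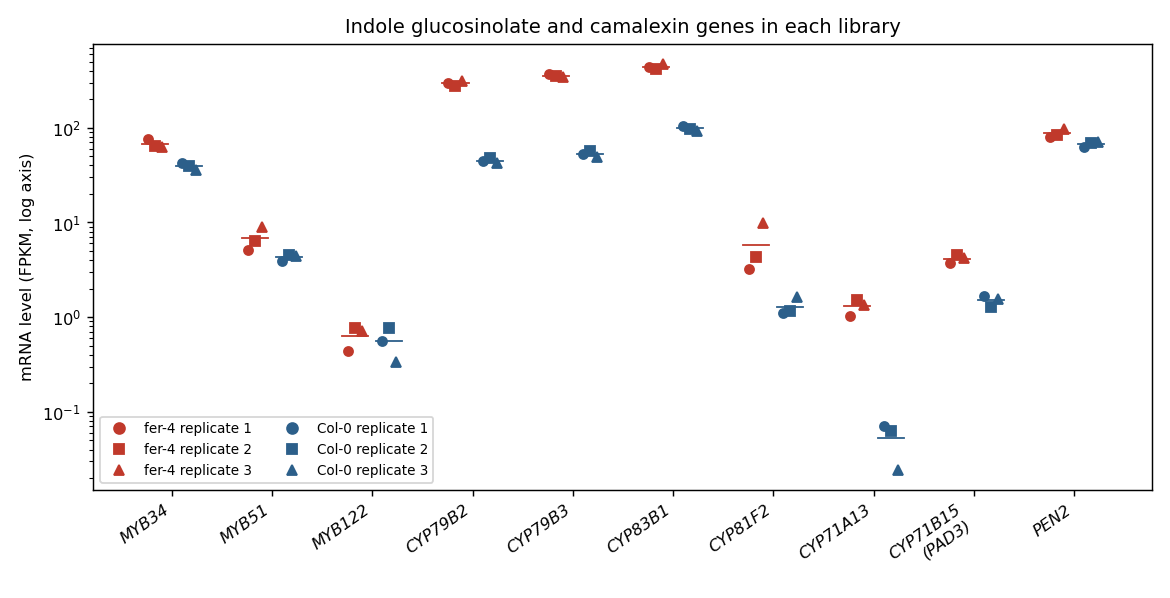
mRNA level in FPKM (log axis) of the 10 genes in each of the 3 *fer-4* libraries (red) and 3 Col-0 libraries (blue), with the marker shape giving the replicate and the line the mean. *CYP79B2*, *CYP79B3* and *CYP83B1* lie at 278 to 469 FPKM in *fer-4* and 42.8 to 105 FPKM in Col-0, *MYB122* overlaps between the genotypes, and *CYP71A13* is under 0.1 FPKM in every Col-0 library.

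*FER* (AT3G51550) was at 0.0905, 0.0270 and 0.0438 FPKM in *fer-4* and at 56.5, 62.6 and 64.6 FPKM in Col-0, as the labels state. FPKM summed to between 910619 and 1058751 per library, and between 21824 and 22015 genes were above 0. Read counts are not part of the files, and the depth of a value is therefore unknown. From the steps between low values, depth relative to Col-0 replicate 1 was 0.868 to 1.013 in *fer-4* and 0.953 to 1.09 in Col-0. Markers of root and shoot cells were both lower in *fer-4*, where 16.0% of all genes tested fell and 18.0% rose. Of 14 root markers, 8 fell, 0 rose and 6 did not pass, and their summed level was 150.7 to 191 FPKM in *fer-4* and 248 to 269 FPKM in Col-0. Of 8 shoot markers, 5 fell, 0 rose and 3 did not pass, with sums of 20146.2 to 24768.5 FPKM in *fer-4* and 33170.6 to 36346.2 FPKM in Col-0. These counts depended on the Col-0 libraries, since 5 root markers fell without Col-0 replicate 3 and 2 shoot markers fell without Col-0 replicate 1 or 3. No marker was at 0 in all libraries, and their part in the results below was not tested.

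The MYB regulators had small fold changes or did not pass. *MYB34*, the most abundant of the 3 MYB genes in these seedlings, lies on chromosome 5 from 24494691 to 24496351 in TAIR10. *MYB34* was at 76.6, 64.8 and 63.1 FPKM in *fer-4* and at 42.1, 39.6 and 36.2 FPKM in Col-0. The groups did not overlap, and *MYB34* rose by 0.79 on the log2 scale (SE 0.10, limma adjusted p = 7.8e-04).

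*MYB51* (chromosome 1 from 6389411 to 6391267), linked to indole glucosinolates of the shoot and to responses to microbes, was at 5.14, 6.36 and 8.90 FPKM in *fer-4* and at 3.91, 4.50 and 4.48 FPKM in Col-0. Replicate 3 was the highest of *fer-4*, and replicate 1 lay close to the highest Col-0 library. The log2 fold change of *MYB51* was 0.62 (SE 0.19, limma adjusted p = 0.0396). This call did not hold without *fer-4* replicate 3 (log2 fold change 0.41, adjusted p = 0.0841 from limma), without *fer-4* replicate 2 (0.0712), or without Col-0 replicate 1 (0.13), 2 (0.0841) or 3 (0.0859), nor with no limit on low values or in limma without trend (both 0.0537). *MYB122* (chromosome 1 from 27855699 to 27857534), the least abundant of the 3, was at 0.436, 0.763 and 0.713 FPKM in *fer-4* and at 0.564, 0.766 and 0.338 FPKM in Col-0. The groups overlapped. The 95% interval of its log2 fold change, 0.19, went from -0.60 to 0.98 (adjusted p = 0.700 from limma).

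*CYP79B2* and *CYP79B3*, which encode the enzymes that form the aldoxime, had similar fold changes. *CYP79B2* (chromosome 4 from 18525246 to 18527579) was at 298, 278 and 310.0 FPKM in *fer-4* and at 44.8, 47.5 and 42.8 FPKM in Col-0. *CYP79B3* (chromosome 2 from 9488554 to 9491187) was at 371, 349 and 348 FPKM in *fer-4* and at 52.3, 56.7 and 49.0 FPKM in Col-0. The lowest *fer-4* library of each was far above the highest Col-0 library. The log2 fold change was 2.71 for *CYP79B2* (SE 0.08, limma adjusted p = 3.2e-07) and 2.76 for *CYP79B3* (SE 0.09, limma adjusted p = 3.5e-07). These are 6.55-fold and 6.76-fold differences. Ordered by fold change from the highest, *CYP79B3* was number 351 and *CYP79B2* number 363 of the 19839 genes.

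The log2 ratio of *CYP79B2* over *CYP79B3* was -0.31, -0.33 and -0.17 in *fer-4* libraries and -0.22, -0.26 and -0.19 in Col-0 libraries. The ranges overlapped, and the mean difference of -0.05 had a p of 0.4 by an exact permutation test (2-sided, 0.56 adjusted over 7 ratios). With 3 libraries against 3, this test cannot give a p below 0.1. Coding sequences of the pair are 80.9% identical, with a longest shared run of 32 bases.

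*CYP83B1* (chromosome 4 from 15273471 to 15275310), which commits the aldoxime to indole glucosinolates, was the most abundant of the 10 genes in both genotypes. It was at 441, 421 and 469 FPKM in *fer-4* and at 105, 97.7 and 93.1 FPKM in Col-0. *CYP83B1* rose by 2.17 on the log2 scale (SE 0.09, limma adjusted p = 1.6e-06), a 4.50-fold difference.

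*CYP81F2* (chromosome 5 from 23187840 to 23189857) encodes an enzyme that hydroxylates the indole ring at the position needed for glucosinolates that PEN2 uses in immunity. It was at 3.22, 4.30 and 9.84 FPKM in *fer-4* and at 1.11, 1.15 and 1.62 FPKM in Col-0. The 3 *fer-4* libraries were all above Col-0 but spread widely, with replicate 3 3.05 times replicate 1. *CYP81F2* rose by 1.93 on the log2 scale (SE 0.37, limma adjusted p = 0.00525), which was 1.47 without *fer-4* replicate 3 (adjusted p = 0.00393).

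On the camalexin branch both genes rose from low levels. *CYP71A13* (chromosome 2 from 13109794 to 13112011) was at 1.03, 1.53 and 1.34 FPKM in *fer-4* and at 0.0701, 0.0634 and 0.0245 FPKM in Col-0. Its log2 fold change was 3.19 (SE 0.32, limma adjusted p = 1.9e-04). With Col-0 so close to 0, this size depends on the pseudocount and was 1.12 with 1 FPKM added and 4.46 with 0.01 FPKM added. *PAD3* (chromosome 3 from 9887948 to 9889705), the last enzyme gene of camalexin, was at 3.69, 4.59 and 4.21 FPKM in *fer-4* and at 1.66, 1.30 and 1.57 FPKM in Col-0. *PAD3* rose by 1.41 on the log2 scale (SE 0.16, limma adjusted p = 3.6e-04).

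*PEN2* (chromosome 2 from 18364756 to 18367725), which acts after synthesis, had the smallest difference among the 9. It was at 80.5, 84.7 and 96.6 FPKM in *fer-4* and at 62.0, 69.3 and 70.0 FPKM in Col-0. *PEN2* rose by 0.38 on the log2 scale (SE 0.10, limma adjusted p = 0.0195). It did not pass without *fer-4* replicate 3 (adjusted p = 0.0569), Col-0 replicate 1 (0.0921) or Col-0 replicate 2 (0.0533), nor after quantile normalization (0.0867), all from limma.

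By level in FPKM, which is per length, the order in *fer-4* was *CYP83B1*, *CYP79B3*, *CYP79B2*, *PEN2*, *MYB34*, *MYB51*, *CYP81F2*, *PAD3*, *CYP71A13* and *MYB122*. In Col-0 it was *CYP83B1*, *PEN2*, *CYP79B3*, *CYP79B2*, *MYB34*, *MYB51*, *PAD3*, *CYP81F2*, *MYB122* and *CYP71A13*. *PEN2* was thus below both aldoxime genes in *fer-4* and above both in Col-0. The libraries of *MYB51*, *CYP81F2* and *PAD3* overlapped between neighbours in *fer-4*, as did those of *PAD3* and *CYP81F2* in Col-0. All other neighbours in either order had libraries that did not overlap.

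The genes around these 10 mostly rose as well. *CYP71A12* (AT2G30750, chromosome 2 from 13099336 to 13101413), the relative of *CYP71A13* that also forms indole-3-carbonyl nitriles, was at 10.2, 11.0 and 25.9 FPKM in *fer-4* and at 0.157, 0.0810 and 0.0700 FPKM in Col-0. Its log2 fold change was 6.17 (SE 0.36, limma adjusted p = 1.0e-05), and 3.80 with a pseudocount of 1 FPKM. Like *CYP71A13*, it passed the limit on low values only through *fer-4*.

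The coding sequences of this pair are 90.4% identical over 1494 bases, with 144 differences and a longest shared run of 59 bases. Loci of the pair lie 8380 bases apart. Coding bases 562 to 681, shown here with the 9 differences in capitals, hold that longest run. A read that lies wholly inside the run cannot be assigned by its letters.
CYP71A12: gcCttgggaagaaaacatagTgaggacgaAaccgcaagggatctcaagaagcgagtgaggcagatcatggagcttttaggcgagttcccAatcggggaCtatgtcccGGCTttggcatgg
CYP71A13: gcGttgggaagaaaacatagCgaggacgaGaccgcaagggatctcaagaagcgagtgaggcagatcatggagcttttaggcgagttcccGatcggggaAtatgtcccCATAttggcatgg

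The sources used here do not say how reads common to both genes were divided, so their separate levels are uncertain. Their sum was 11.2, 12.5 and 27.3 FPKM in *fer-4* and 0.227, 0.144 and 0.0945 FPKM in Col-0. Within libraries, the log2 ratio of *CYP71A13* over *CYP71A12* was -3.19, -2.76 and -4.17 in *fer-4* and -0.60, -0.15 and -0.45 in Col-0. These did not overlap, with a mean difference of -2.98 and the smallest p the exact permutation test allows, 0.1 (0.175 adjusted over 7 ratios). Both genes are near the added 0.1 FPKM in Col-0, which draws their Col-0 ratios toward 0. The size of this difference thus depends on the pseudocount. The log2 ratio of *PAD3* over *CYP71A13* was 1.75, 1.52 and 1.58 in *fer-4* and 3.37, 3.09 and 3.74 in Col-0, again without overlap (difference -1.79, exact permutation p = 0.1, adjusted 0.175). With 1 FPKM added that difference was -0.08.

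Of 6 genes of camalexin and indole carbonyl nitriles beside the 10, 5 rose, 0 fell and *GGP3*, a gamma-glutamyl peptidase gene, did not pass (log2 fold change 0.15). Of all genes tested, 18.0% rose. *FOX1*, an oxidase gene of the carbonyl nitrile branch, was at 6.17, 6.54 and 13.4 FPKM in *fer-4* and at 0.0682, 0.0835 and 0.0480 FPKM in Col-0 (log2 fold change 5.64, and 3.11 with 1 FPKM added). Among the 5 that rose, *FOX1*, *CYP71A12* and *CYP82C2* were tested only because of their *fer-4* levels. The filter thus fixed that their *fer-4* mean was the higher one, though not the adjusted p. *CYP82C2*, which hydroxylates the carbonyl nitrile, was at 0.457, 0.710 and 2.94 FPKM in *fer-4* and was listed at 0 in every Col-0 library, so no fold change is given. It reached the limit of 0.5 FPKM through *fer-4* replicate 3 and was not tested without that library. The glutathione S-transferase genes *GSTF6* (518, 368 and 726 FPKM in *fer-4*, 20.4, 21.0 and 20.9 FPKM in Col-0) and *GSTU4* (117, 90.8 and 108 FPKM in *fer-4*, 4.77, 6.60 and 4.10 FPKM in Col-0) had log2 fold changes of 4.63 and 4.34. *GSTF6* shares 94.7% of its coding bases with *GSTF7*, and reads may have been divided between them.

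All 8 genes listed for the core steps of glucosinolate synthesis rose (18.0% of all genes tested did), with log2 fold changes of 1.01 to 2.34 and a median of 1.44. The peptidase gene *GGP1* (739 ± 112 FPKM in *fer-4* and 145 ± 7.63 FPKM in Col-0, SD, n = 3) rose the most, followed by the kinase genes *APK2* (log2 fold change 1.81) and *APK1* (1.64), which supply activated sulfate. The sulfotransferase gene *SOT16* (1.46) rose as well. *APK2* is the direct neighbour of *CYP79B2*, with 3677 bases and no gene between their loci. *GGP3*, which lies 2915 bases from *GGP1*, did not pass, as given above.

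Of 8 other genes of indole ring modification, 6 rose (18.0% of all genes tested did), 0 fell and 2 did not pass, with a median log2 fold change of 1.20. *CYP81F4*, needed for the modification at the ring nitrogen, was at 499 ± 22.1 FPKM in *fer-4* and 180 ± 10.9 FPKM in Col-0 (SD, n = 3), a log2 fold change of 1.47. The methyltransferase genes *IGMT5* (2.28), *IGMT1* (1.61) and *IGMT2* (1.31) rose too. *IGMT3* (-0.08) and *IGMT4* (-0.33, unadjusted p = 0.0387 from limma) did not pass, and *IGMT4* fell after quantile normalization (-0.46, adjusted p = 0.026 from limma) and without Col-0 replicate 1 (-0.47, adjusted p = 0.0247). *IGMT2* and *IGMT3* are 97.4% identical in coding sequence with a shared run of 263 bases, and their sum was 33.3 ± 2.58 FPKM in *fer-4* and 30.2 ± 1.74 FPKM in Col-0 (SD, n = 3), 1.10-fold. *IGMT1* and *IGMT4* are 93.0% identical with a shared run of 149 bases, so their separate levels are uncertain too. The levels of *CYP81F2* and *CYP81F4* differed by a log2 ratio of -6.57 ± 0.86 in *fer-4* and -7.03 ± 0.29 in Col-0 (SD, n = 3). These ratios overlapped (difference 0.46, exact permutation p = 0.6, adjusted 0.7), and the sign of the difference turned without *fer-4* replicate 3 (-0.03) or with 1 FPKM added (-0.02).

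**Figure D2:**
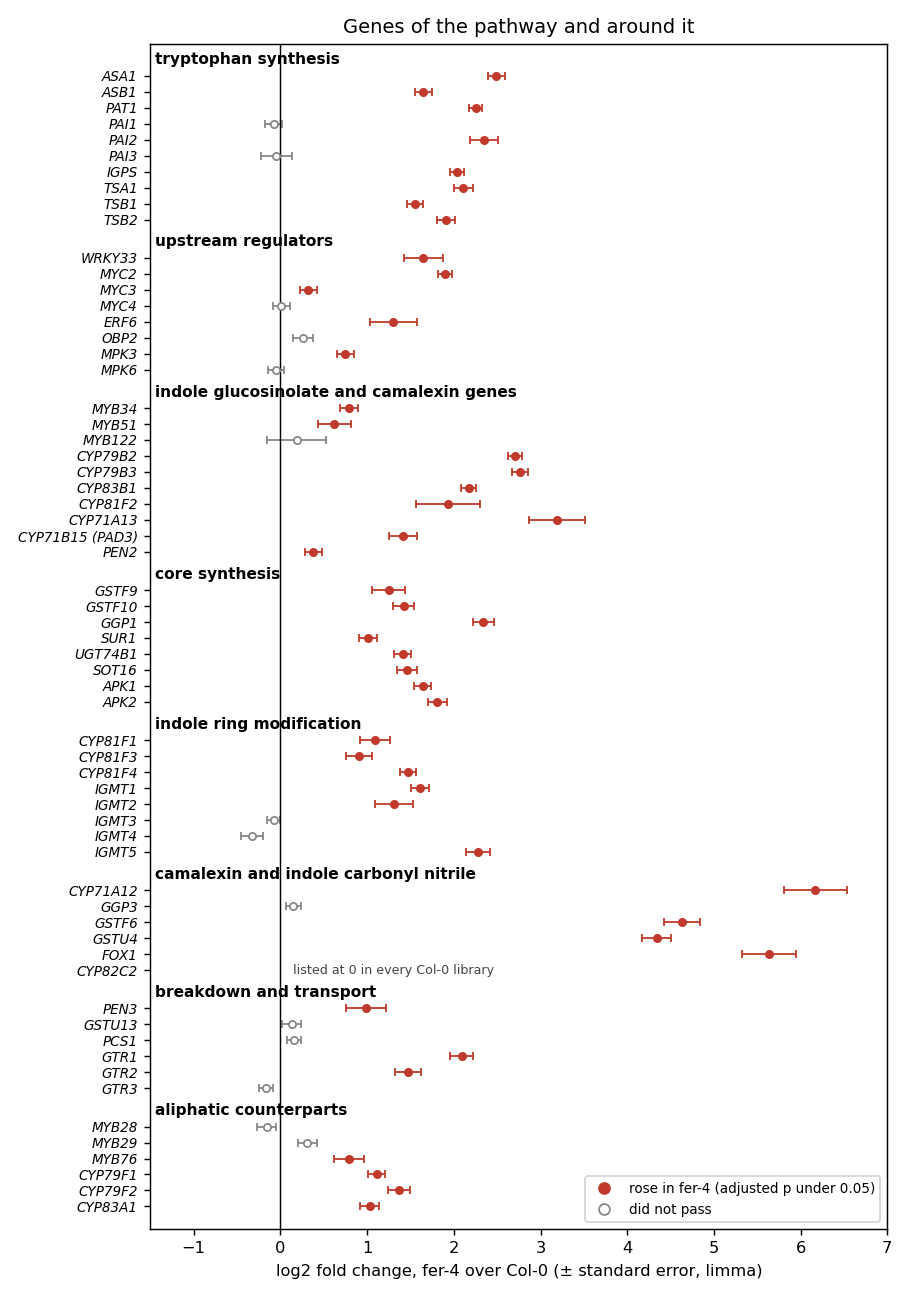
log2 fold change (*fer-4* over Col-0, bars are the standard error from limma) for the 10 genes and the lists around them, where red filled points rose and open grey points did not pass. *CYP71A12* (6.17) and *FOX1* (5.64) are the largest with the pseudocount used here, and both were tested only because of their *fer-4* levels. With 1 FPKM added they were 3.80 and 3.11, below *GSTF6* (4.57) and *GSTU4* (4.12). With 0.01 FPKM added they were 7.06 and 6.76, above *GSTF6* (4.64) and *GSTU4* (4.37). No gene shown fell with the settings used here (*IGMT4* fell under 2 alternatives). *CYP82C2* has no point because it was listed at 0 in every Col-0 library.

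Upstream, 8 of 10 genes of tryptophan synthesis rose (18.0% of all genes tested did), 0 fell and 2 did not pass, with a median log2 fold change of 1.98. *ASA1*, the subunit gene of anthranilate synthase that controls entry to the pathway, was at 90.3 ± 5.29 FPKM in *fer-4* and 16.0 ± 1.65 FPKM in Col-0 (SD, n = 3), a log2 fold change of 2.49. *PAI2* (2.35), *PAT1* (2.25) and *TSA1* (2.11) followed. *PAI1* (-0.08) and *PAI3* (-0.05) did not pass. *PAI1* and *PAI2* have 99.4% identical coding sequences, so their split is uncertain, and their sum was 33.9 ± 4.31 FPKM in *fer-4* and 13.9 ± 0.875 FPKM in Col-0 (SD, n = 3), 2.43-fold.

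Among 8 upstream regulators, 5 rose (18.0% of all genes tested did), 0 fell and 3 did not pass (median log2 fold change 0.54). *MYC2*, which encodes a central factor of jasmonic acid signaling, was at 105, 110.2 and 111 FPKM in *fer-4* and at 28.3, 28.9 and 30.2 FPKM in Col-0. Its log2 fold change was 1.90 (SE 0.08, limma adjusted p = 1.2e-06). *WRKY33*, which binds promoters of camalexin genes, was at 23.0, 34.1 and 45.4 FPKM in *fer-4* and at 8.63, 10.8 and 11.99 FPKM in Col-0, a log2 fold change of 1.65 (SE 0.23, limma adjusted p = 0.00116). *WRKY33* ranged widely among *fer-4* libraries, and *MYC2* did not. *ERF6* (1.30), *MPK3* (0.75), a kinase gene upstream of *WRKY33*, and *MYC3* (0.32, adjusted p = 0.0399 from limma) also rose. The call of *MYC3* was lost under 8 alternatives besides the DEG thresholds, among them leaving out any Col-0 library (adjusted p from 0.101 to 0.12). *MYC4*, *OBP2* and *MPK6* did not pass, though *OBP2* did without *fer-4* replicate 2 (log2 fold change 0.35, adjusted p = 0.0386 from limma).

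Of 6 genes of breakdown and transport, 3 rose (18.0% of all genes tested did), 0 fell and 3 did not pass (median log2 fold change 0.58). The glucosinolate transporter genes *GTR1* (155 ± 29.4 FPKM in *fer-4* and 36.1 ± 1.95 FPKM in Col-0, SD, n = 3, log2 fold change 2.09) and *GTR2* (1.47) rose. *PEN3*, which encodes an exporter that works with PEN2 products, rose as well (0.99). *GTR3* (-0.17), *GSTU13* (0.13) and *PCS1* (0.16) did not pass.

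The aliphatic branch, which uses methionine instead of tryptophan, is described for comparison. Of 6 aliphatic counterparts, 4 rose (18.0% of all genes tested did), 0 fell and 2 did not pass, with a median log2 fold change of 0.91. *CYP79F2* (1.37), *CYP79F1* (1.11), *CYP83A1* (1.03) and *MYB76* (0.79) rose, and *MYB29* (0.31) and *MYB28* (-0.16) did not pass. Coding sequences of *CYP79F1* and *CYP79F2* are 91.4% identical with a shared run of 100 bases, so their separate levels are uncertain. Within libraries, the log2 ratio of *CYP79B2* over *CYP79F1* was 0.09, -0.17 and 0.14 in *fer-4* and -1.67, -1.33 and -1.74 in Col-0. That of *CYP83B1* over *CYP83A1* was 0.67, 0.65 and 0.99 in *fer-4* and -0.38, -0.20 and -0.53 in Col-0. Neither ratio overlapped between genotypes, and the differences of 1.60 and 1.14 each had the smallest exact permutation p of 0.1 (adjusted 0.175), so at this number of libraries the test cannot call them. The log2 ratio of *MYB51* over *MYB34* did overlap, at -3.34 ± 0.53 in *fer-4* and -3.16 ± 0.21 in Col-0 (SD, n = 3), with a difference of -0.17 (exact permutation p = 0.7, adjusted 0.7) that became 0.09 without *fer-4* replicate 1.

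**Figure D3:**
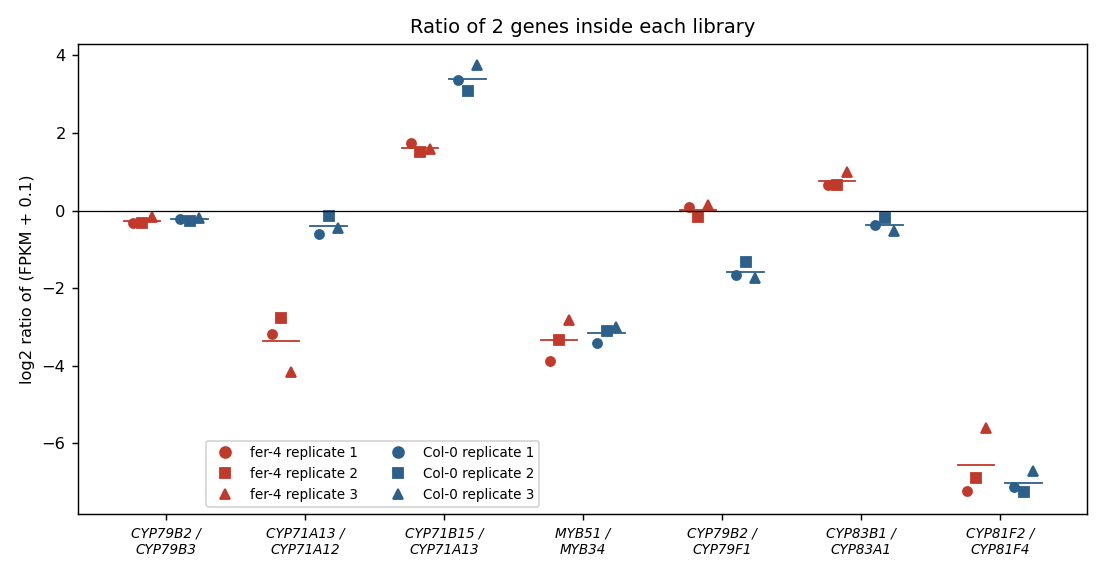
log2 ratio of (FPKM + 0.1) of a pair of genes inside each library, in *fer-4* (red, left) and Col-0 (blue, right), with the marker shape giving the replicate and the line the mean. Ratios of *CYP79B2* over *CYP79B3*, *MYB51* over *MYB34* and *CYP81F2* over *CYP81F4* overlap between genotypes, and the other 4 do not. *CYP71A13* is below the added 0.1 FPKM in every Col-0 library, so the ratios that hold it depend on that amount.

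Genes of this pathway differed in how much the *fer-4* libraries varied among themselves. *CYP79B3*, *CYP79B2* and *CYP83B1* had a highest library 1.06, 1.11 and 1.12 times the lowest. The same ratio was 3.05 for *CYP81F2*, 2.55 for *CYP71A12*, 2.17 for *FOX1*, 1.98 for *WRKY33* and 1.73 for *MYB51*. Over all genes that rose, the median of this ratio was 1.27, and it was between 1.09 and 1.79 from the 10th to the 90th percentile. *CYP81F2*, *CYP71A12*, *FOX1*, *WRKY33* and *MYB51* were each highest in *fer-4* replicate 3.

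Among genes that rose, replicate 3 was the highest *fer-4* library for 4 of 5 in the camalexin and carbonyl nitrile list and 4 of 5 upstream regulators. It was the highest for 5 of the 9 genes of the main group that rose, 3 of 3 genes of breakdown and transport, 2 of 6 of ring modification, 2 of 8 of tryptophan synthesis and 0 of 4 aliphatic counterparts. *CYP71A13* and *PAD3*, the camalexin genes of the main group, are not in that list and were highest in replicate 2. Their highest *fer-4* library was 1.49 and 1.24 times the lowest. By the same ratio the regulator genes *MYC2* (1.06) and *MPK3* (1.03) varied little, though replicate 3 was their highest. Replicate 1 was the highest for 8 of 8 genes of the core steps and 5 of 8 of tryptophan synthesis. Among all genes that rose, replicate 1 was the highest for 42.4%, replicate 2 for 11.6% and replicate 3 for 46.0%. *fer-4* replicate 3 was also the lowest *fer-4* library for 10 of 14 root markers and 6 of 8 shoot markers, and had the lowest relative depth (0.868). The part of these in the higher values of replicate 3 was not tested.

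**Figure D4:**
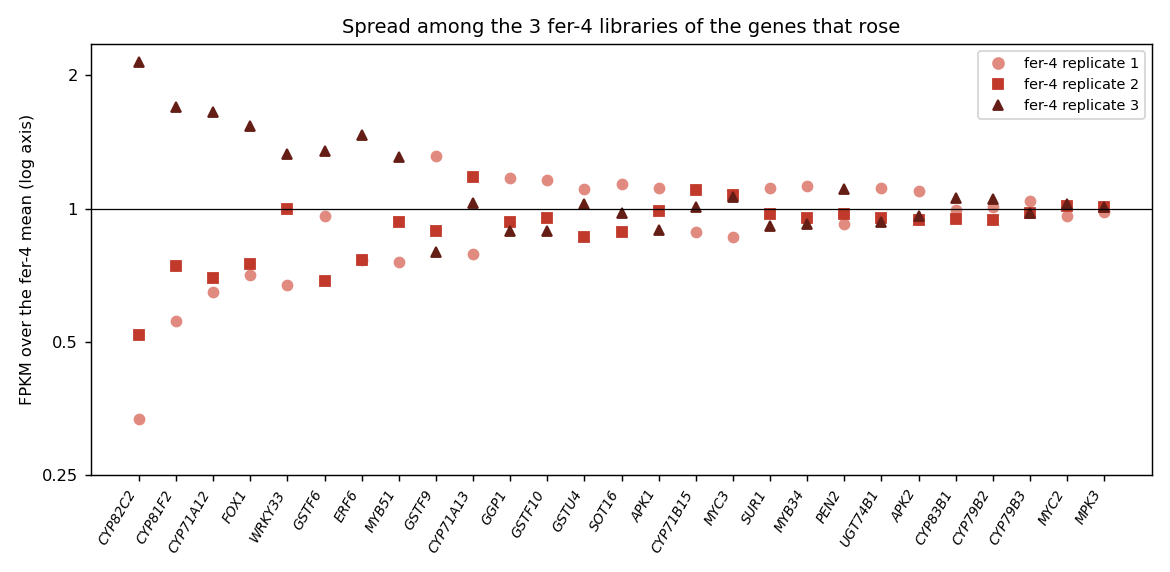
FPKM of each *fer-4* library over the mean of the 3 *fer-4* libraries (log axis) for the genes that rose among the 10, the core steps, the camalexin and carbonyl nitrile genes and the upstream regulators, ordered by their spread. *CYP82C2*, *CYP81F2*, *CYP71A12*, *FOX1* and *WRKY33* on the left are highest in replicate 3, and *CYP83B1*, *CYP79B2*, *CYP79B3* and *MYC2* on the right lie close to 1 in every library.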

How the data were processed

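RNA-seq was read from whole seedlings of *fer-4* and Col-0, 3 libraries each, which the study's methods call biological replicates and the labels tell apart by genotype. The authors deposited 1 value for each gene in each library, from trimmed reads mapped to TAIR10. These deposited values carry no unit, and they were taken as FPKM because Cufflinks is the program named and the values are not whole numbers. STAR 2.5 and Cufflinks 2.2.1 are listed in the submitters' processing notes. The library kit is directional, and the sources used here do not give the strand setting of the counting. The deposited table also holds the authors' own fold changes, p-values and q-values, which were not used.

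Genes that averaged 0.5 FPKM or more across the 6 libraries were tested on log2(FPKM + 0.1) with limma 3.58.1 in R 4.3.3 (intensity trend, 2-sided, no covariate), with Benjamini-Hochberg adjustment over the 19839 genes. Limma p-values set the genotype difference against the spread among these libraries within a genotype, moderated by the intensity trend over all genes. Fold changes are on the log2(FPKM + 0.1) scale, which understates the change of genes near 0. Ratios of 2 genes within a library were compared by an exact permutation test and adjusted over 7 pairs. Correlation of the deviations of same-numbered libraries was -0.044, 0.043 and -0.066, so the numbers were not taken to pair the samples. Alternatives were other pseudocounts (1 and 0.01 FPKM), no limit or a mean of at least 1 FPKM, quantile and median-ratio scaling, limma without trend, a replicate block, the DEG thresholds, and leaving out each library. On simulated data with few genes changed, the procedure recovered 26.0% of 1.5-fold, 70.0% of 2-fold and 93.3% of 4-fold changes. Genes that did not pass may therefore hold small changes.

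The 10 genes, the 10 lists (with 52 pathway genes beside the 10) and the pairs were chosen with earlier results of these data known. Genes named are the 10, *FER*, *MYC2*, *WRKY33*, those of the pairs, up to 4 per list with the largest changes, and list genes that did not pass; others named were chosen after their values were seen. Root markers are *CASP1* to *CASP5*, *SHR*, *SCR*, *PHT1;1*, *NRT2.1*, *RHD6*, *COBL9*, *EXPA7*, *PLT1* and *PLT2*; shoot markers are *RBCS1A*, *RCA*, *LHCB5*, *LHCB6*, *PSAN*, *FD2*, *GLK1* and *GLK2*. Locus positions are those of the files, with starts raised by 1, since of 7465 genes with the same end in RefSeq 3883 started 1 base earlier in the files and 22 started at the same base. Promoters and coding sequences are from RefSeq, TAIR10.1. Python 3.11.15 with pandas 2.3.3, numpy 2.4.6, Biopython 1.88 and matplotlib 3.10.9 did the rest.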

Additional observations from a re-analysis of the deposited data

How the results depend on the processing

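Of 148 values of the 10 genes under alternatives, 133 kept their direction and their side of the threshold, 14 no longer passed and 1 turned (*MYB122*, -0.07 without Col-0 replicate 3, with 0.42 at the other end of leaving out a library); those that no longer passed belong to *MYB51*, *PEN2* and, at the DEG thresholds, *MYB34*. With a mean of at least 1 FPKM, *MYB122* and *CYP71A13* were not tested. Over all genes, 1262 rose and 502 fell at the DEG thresholds, and at those thresholds 3 upstream regulators rose, 3 root markers fell and 2 shoot markers fell. After quantile normalization 3064 genes rose and 4203 fell, against 3569 and 3170 without it, and 1 gene of indole ring modification fell (*IGMT4*). When 1 library was left out, between 2473 (without Col-0 replicate 1) and 3947 (without *fer-4* replicate 1) genes rose and between 1938 and 3708 fell, in the same libraries. Likewise 0 to 1 gene of ring modification fell (1 without Col-0 replicate 1), 5 to 8 root markers (5 without Col-0 replicate 3) and 2 to 5 shoot markers (2 without Col-0 replicate 1 or 3). The causes were not tested. Leaving out a library moved the difference in the log2 ratio of *MYB51* over *MYB34* between -0.44 and 0.09, and that of *CYP81F2* over *CYP81F4* between -0.03 and 0.79, which was -0.02 with 1 FPKM added. Of genes that did not pass, log2 fold changes also turned after quantile normalization for *MYC4* (-0.06), *GSTU13* (-0.02) and *GLK1* (-0.03), and when 1 library was left out for *MYC4* (range -0.06 to 0.07), *MPK6* (-0.11 to 0.02), *PAI3* (-0.17 to 0.10), *SCR* (-0.16 to 0.01) and *RHD6* (-0.18 to 0.03). With the replicate block, 3404 genes rose and 2986 fell and 9 of the 10 genes rose; among the genes named here *MYC3* lost its call (adjusted p = 0.0513 from limma). No read counts were used, so depth sets no interval here, and values near 0 in Col-0 rest on few fragments.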
